A study of Mus musculus with 12 samples.

Results

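The genes described here are 39 antioxidant genes: the transcription factor NRF2, its inhibitor KEAP1, and enzymes that supply reducing power, remove peroxides and superoxide, bind iron, break down heme, or conjugate and export reactive compounds. A gene was represented by the probe set annotated with its symbol alone, and by the one with the highest mean over 12 arrays where there were several. By this rule 36 of the 39 genes had a probe set, out of 19938 gene symbols with a probe set of their own among 28853 probe sets on the array. G6pdx, Prdx5 and Prdx6 were not analysed here. Me1, Prdx1, Prdx2 and Gpx4 each had 2 probe sets of their own.

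RNA came from primary mouse embryonic fibroblasts, connective-tissue cells grown out of embryos, and each of 12 cultures was measured on 1 array. All cultures were from male C57BL/6J embryos at E12.5-14.5, were taken at passage 5 and were untreated. There were 4 groups of 3: mTERT KO (generation G1, lacking the protein subunit of telomerase), mTERT WT, mTR KO (G1, lacking the telomerase RNA) and mTR WT. In each line, knockout and wild-type embryos of a set were littermates. The culture labels give a number and do not name a litter. Counts of pairs, comparisons of mTERT sets and fits said to use pairs treat mTERT KO and WT cultures of the same number as a pair. All other mTERT tests, ± values and intervals compare group means without the pairs. The sources used here do not say how the alleles were made. The values are log2 signals, so a difference of 1 is a 2-fold difference, and signals of different probe sets do not rank the transcripts. With 3 cultures in each group, the number of arrays limits the precision.

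NRF2, encoded by Nfe2l2, is a transcription factor that KEAP1 holds in the cytoplasm and marks for degradation. Oxidants and electrophiles modify cysteines of KEAP1, NRF2 then accumulates in the nucleus, pairs with a small MAF protein and binds antioxidant response elements near its target genes. Because KEAP1 acts on the NRF2 protein, activity of the pathway is usually read from its target transcripts, such as Nqo1, Hmox1, Gclm, Srxn1 and Txnrd1, rather than from Nfe2l2 or Keap1 themselves. Not every gene on the list depends on NRF2: Prdx3, Sod1, Cat and the glutathione peroxidases are antioxidant enzymes with other regulators as well.

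The knockout labels were checked first. The Tert signal was 5.72, 5.74 and 5.51 in mTERT WT versus 4.99, 4.83 and 4.75 in mTERT KO, and 5.66 to 5.80 in the 6 mTR cultures. Terc, the telomerase RNA, lay at background in both mTR groups, between 4.50 and 4.94, so its probe set did not check the mTR label. Background here is the signal that 95% of 1035 probe sets for olfactory receptors on an array do not exceed, 4.93 to 5.09. All 12 fibroblast markers were above it in every culture, and so were all 16 macrophage markers, whose mean signal ran from 6.98 to 9.89. In RNA from mixed cells, fewer cells of a type and less RNA per cell cannot be told apart. Of the other marker lists, 2 of 2 erythroid and 5 of 6 endothelial markers stayed at background in every culture. The erythroid list had 5 genes, of which 2 had a probe set. Above background in every culture were 3 of 5 adipocyte, 2 of 3 neural and Schwann cell, 2 of 6 epithelial and 2 of 6 skeletal muscle markers.

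Matches to the core of the antioxidant response element near the starts of these genes are shown first, because NRF2 is known to act through such elements. The core searched was TGACNNNGC on both strands, in the RefSeq promoter table of mouse assembly GRCm38.p6, which gives 300 bases from 250 before to 50 after each annotated start. It was found for 10 of the 29 measured members that the table holds (34.5%), against 3781 of 27025 genes in all (14%). Counted by promoter, the core was in 10 of the 40 promoters of these members (25%), against 4071 of 32851 in all (12.4%). In 7 of the 10 genes the match began upstream of the start, and in Pgd, Srxn1 and Msrb2 it lay downstream. The 6 printed here belong to genes whose signals are given by culture below. Each is written 5′ to 3′ in the strand that reads TGAC to GC, with up to 10 flanking bases and the core in capitals. The Nfe2l2, Pgd and Me1 matches lie on the strand of the gene and the others on the opposite strand.
Nfe2l2 (chr2:75704885-75704913): tcagcccaccTGACTCCGCcatgccccgg
Pgd (chr4:149166061-149166089): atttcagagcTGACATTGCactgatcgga
Me1 (chr9:86695902-86695930): gatgccgccgTGACTCAGCgcttctcgcg
Prdx1 (chr4:116685456-116685484): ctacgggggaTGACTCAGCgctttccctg
Mgst1 (chr6:138140461-138140489): ccccgcctccTGACCGTGCcaagccccgc
Msrb2 (chr2:19371665-19371685): caTGACGCTGCcaccaacggg

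The Me1 and Prdx1 cores are the same 9 bases, and both hold TGACTCA, the site bound by AP-1 factors. Such a match is a description of the sequence and does not show that NRF2 binds there in these cells. Of the 10 genes with a match, 5 had a higher mean in mTERT KO than in mTERT WT and 4 in mTR KO than in mTR WT. Among the 19 genes of the table without one, the corresponding counts were 9 and 6.

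All 36 genes were above background in 12 of 12 arrays, and their means over the 12 cultures ran from 5.30 for Aox1, a molybdenum-containing aldehyde oxidase, to 12.34 for Fth1, the ferritin heavy chain. The genes differed widely in how steady they were. Prdx3, the mitochondrial peroxiredoxin, spanned 0.13 log2 over all 12 cultures, and only 0.0866% of all probe sets had a smaller spread within groups. Gpx1, the cytosolic glutathione peroxidase, was also steady, with 0.312% of probe sets below its spread. Gsta4, a glutathione transferase that handles lipid peroxidation products, spanned 1.77 log2, the widest range among the 36.

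**Figure D1:**
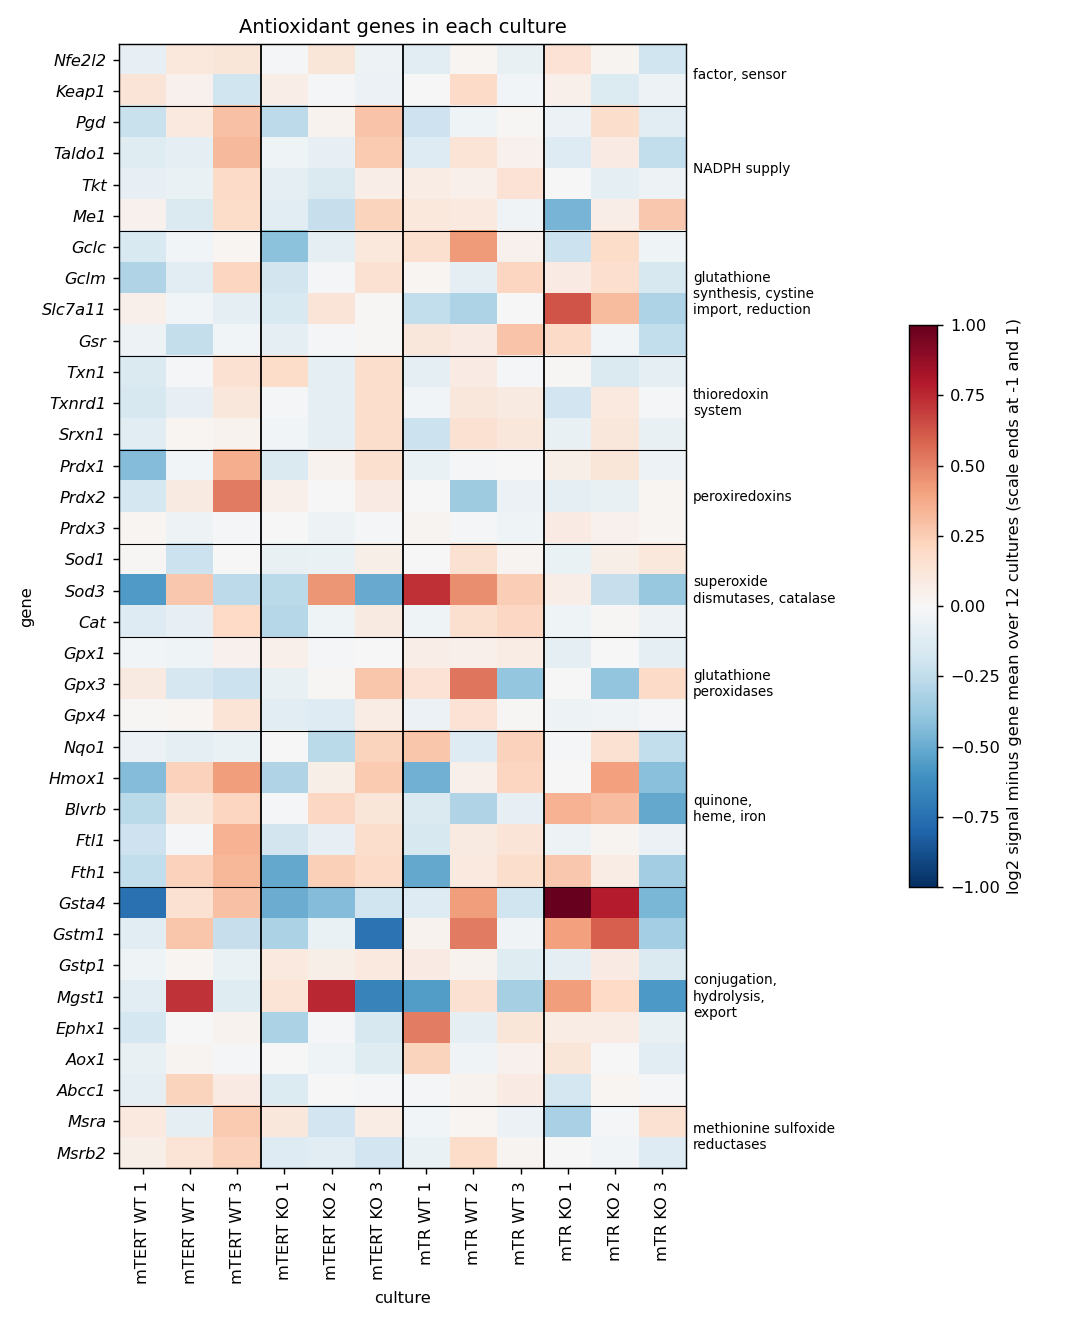
Each row is one of the 36 genes, ordered by role, and each column one of the 12 cultures; colour gives the log2 signal minus the mean of that gene over the 12 cultures, with the scale ending at −1 and 1. Prdx3 and Gpx1 are nearly white throughout, while Gsta4, Mgst1, Gstm1 and Sod3 span the widest ranges, and mTERT WT 1, mTERT KO 1 and mTR KO 3 are mostly on the low side (median deviations of −0.11, −0.09 and −0.09).

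Whether loss of either telomerase subunit changed these genes was asked within each line. In limma's moderated test with Benjamini-Hochberg adjustment over all probe sets at 5%, 0 of 36 genes were called (adjusted p under 0.05) between mTERT KO and mTERT WT, where 0.00347% of all probe sets were called (1 probe set, Tert), and the smallest adjusted p of a member was 1. At an unadjusted p under 0.05, 1 gene passed, Msrb2, against 1.92% of all probe sets. Between mTR KO and mTR WT, limma also called 0 of 36 genes, where 0% of all probe sets were called, with 0.839 the smallest adjusted p. There Sod3 and Gpx1 passed at an unadjusted p under 0.05, against 5.82% of all probe sets.

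The differences were small for most genes. In the mTERT line 16 genes had a higher and 20 a lower mean in KO, with a median difference of −0.03, and 33 of 36 differed by less than 0.2 log2. In the mTR line 12 were higher and 24 lower, with a median of −0.06, and 30 of 36 differed by less than 0.2. The median over all probe sets was 0.001 in the mTERT and 0.0009 in the mTR comparison. The 95% interval lay within a 1.5-fold change in either direction for 29 of 36 genes in the mTERT line and 27 of 36 in the mTR line. The intervals of Sod3, Gpx3, Hmox1, Fth1, Gsta4, Gstm1 and Mgst1 reached beyond it in both lines, and those of Slc7a11 and Blvrb in the mTR line. In this fit a change beyond 1.5-fold was not excluded for these genes with 3 cultures per group. The mTERT intervals leave out the pairs, so differences between culture numbers widen them. For the 7 genes named for both lines, the mTERT SE here ran from 0.21 (Gpx3) to 0.37 (Mgst1). With the pairs as a block on the 6 mTERT arrays, it ran from 0.08 (Fth1) to 0.15 (Gsta4). Over 17 other settings, the sign of the difference held throughout for 12 of 36 genes in the mTERT line and 21 in the mTR line. The settings included leaving out each culture in turn, other scalings and other probe sets. Leaving out a culture of the other line could not move a difference, nor could other probe sets for genes with only 1. The groups also differed in macrophage markers, of which 15 of 16 were lower in mTERT KO (median −0.15, mean signal per culture 7.81 to 9.61 against 8.08 to 9.72 in WT) and 16 of 16 higher in mTR KO (median 0.75, 7.89 to 9.89 against 6.98 to 9.06 in WT). In mTR KO 5 of 5 proliferation markers (median 0.26) were also higher. So were 3 of 3 measured neural and Schwann cell markers (median 0.15), of which 1 was at background in every array. None of these marker differences was called, and their part in the values of the antioxidant genes was not tested.

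**Figure D2:**
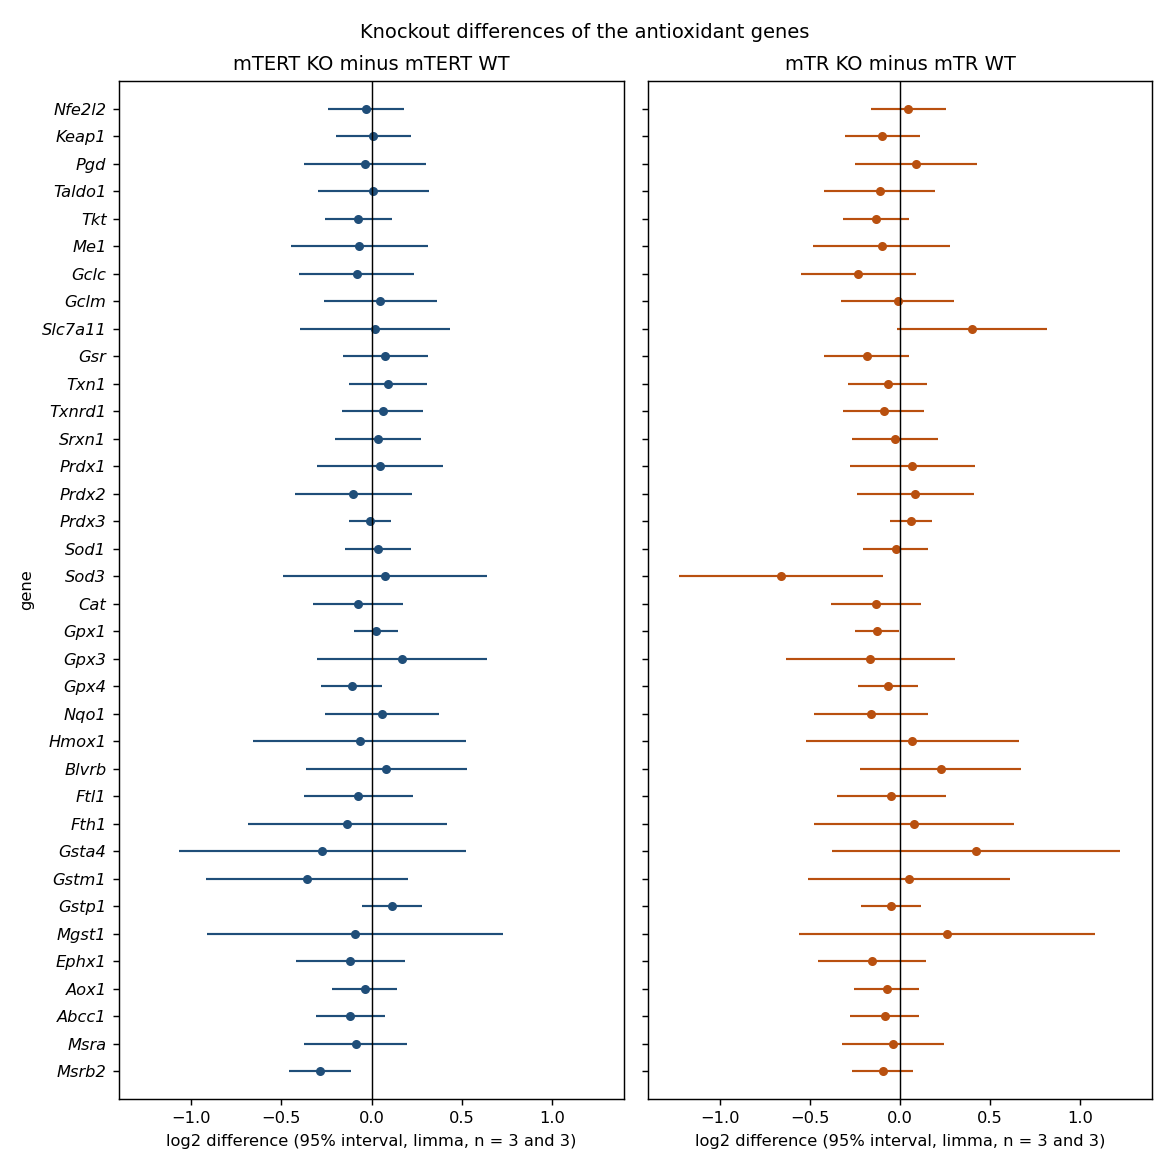
Points give the log2 difference of knockout minus wild type for each of the 36 genes in the mTERT line (left) and the mTR line (right). Lines give the 95% interval from limma, fitted without the pairs, with 3 cultures per group. Most points lie within 0.2 of zero; the interval excludes zero for Msrb2 on the left and for Sod3 and Gpx1 on the right, and those of Gsta4 and Mgst1 are the widest in both panels.

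The factor and its inhibitor were close between groups. Nfe2l2 signals were 9.53, 9.71 and 9.73 in mTERT WT versus 9.59, 9.73 and 9.56 in mTERT KO, and 9.50, 9.62 and 9.53 in mTR WT versus 9.75, 9.64 and 9.41 in mTR KO, in the order of culture numbers 1 to 3, which holds for all values below. The KO minus WT differences were −0.03 ± 0.10 (SE) in the mTERT and 0.04 ± 0.10 in the mTR line. Keap1 gave 7.28, 7.20 and 6.96 in mTERT WT versus 7.22, 7.14 and 7.10 in mTERT KO, and 7.15, 7.35 and 7.13 in mTR WT versus 7.21, 7.02 and 7.11 in mTR KO, with differences of 0.01 ± 0.09 and −0.10 ± 0.09. Knockout and wild-type cultures overlapped in both lines for both genes. Nqo1, a quinone reductase and a common readout of NRF2 activity, gave 5.74, 5.70 and 5.72 in mTERT WT versus 5.79, 5.52 and 6.02 in mTERT KO, and 6.07, 5.66 and 6.02 in mTR WT versus 5.78, 5.94 and 5.54 in mTR KO, dim signals that overlapped between KO and WT in each line.

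NADPH, the reductant for the glutathione and thioredoxin systems, is supplied by the pentose phosphate pathway and by malic enzyme. Pgd, a dehydrogenase of the oxidative branch, measured 9.96, 10.28 and 10.48 in mTERT WT versus 9.92, 10.22 and 10.47 in mTERT KO, and 9.97, 10.14 and 10.19 in mTR WT versus 10.13, 10.36 and 10.08 in mTR KO. Taldo1 (transaldolase) read 7.95, 7.97 and 8.40 in mTERT WT versus 8.03, 7.99 and 8.33 in mTERT KO, and 7.94, 8.21 and 8.12 in mTR WT versus 7.94, 8.16 and 7.83 in mTR KO. In both genes the mTERT values went with the culture number rather than the genotype, and KO and WT overlapped in each line. Tkt, encoding transketolase, showed 8.87, 8.89 and 9.15 in mTERT WT versus 8.87, 8.81 and 9.02 in mTERT KO, and 9.03, 9.003 and 9.10 in mTR WT versus 8.96, 8.86 and 8.90 in mTR KO. All 3 mTR KO cultures lay below all 3 mTR WT cultures for Tkt, by a mean of −0.13 ± 0.08 (adjusted p = 0.84 with limma). Me1, the cytosolic malic enzyme, had signals of 10.82, 10.64 and 10.97 in mTERT WT versus 10.67, 10.55 and 11.01 in mTERT KO, and 10.89, 10.88 and 10.75 in mTR WT versus 10.32, 10.85 and 11.05 in mTR KO, and overlapped in both lines.

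Glutathione is built from cysteine by glutamate-cysteine ligase, whose catalytic and modifier subunits are Gclc and Gclm. Cystine enters through the transporter Slc7a11, and Gsr regenerates the reduced form. Gclc signals were 7.58, 7.71 and 7.76 in mTERT WT versus 7.32, 7.64 and 7.84 in mTERT KO, and 7.90, 8.16 and 7.78 in mTR WT versus 7.52, 7.92 and 7.70 in mTR KO, with a mTR difference of −0.23 ± 0.14, or −0.12 without mTR WT 2, and overlapping cultures. Slc7a11 gave 7.36, 7.28 and 7.22 in mTERT WT versus 7.15, 7.44 and 7.32 in mTERT KO, but 7.06, 6.996 and 7.31 in mTR WT versus 7.93, 7.62 and 6.999 in mTR KO. The mTR difference of 0.40 ± 0.19 (95% interval −0.02 to 0.81, adjusted p = 0.839 with limma) came from mTR KO 1 and 2, while mTR KO 3 lay among the wild types; it was 0.66 without mTR KO 3 and 0.19 without mTR KO 1. Gsr measured 8.26, 8.07 and 8.28 in mTERT WT versus 8.22, 8.30 and 8.33 in mTERT KO, and 8.42, 8.39 and 8.59 in mTR WT versus 8.51, 8.29 and 8.06 in mTR KO. Its differences were 0.08 ± 0.11 in the mTERT and −0.19 ± 0.11 in the mTR line, where mTR KO 1 lay within the wild-type range and the other two KO cultures below it. Leaving out 1 culture moved the Gsr value to between 0.01 (without mTERT WT 2) and 0.12 (without mTERT WT 3) in the mTERT line, and to between −0.30 (without mTR KO 1) and −0.07 (without mTR KO 3) in the mTR line. Gclm differed by 0.05 ± 0.14 and −0.01 ± 0.14.

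Thioredoxin (Txn1) and thioredoxin reductase (Txnrd1) reduce protein disulfides and peroxiredoxins, and Srxn1 rescues over-oxidised peroxiredoxins. Txn1 read 9.06, 9.19 and 9.36 in mTERT WT versus 9.39, 9.12 and 9.38 in mTERT KO, and 9.12, 9.29 and 9.19 in mTR WT versus 9.22, 9.07 and 9.11 in mTR KO, overlapping in both lines, with differences of 0.09 ± 0.10 and −0.07 ± 0.10. The first was 0.02 without mTERT WT 1 and 0.18 without mTERT KO 2. For Txnrd1 the differences were 0.06 ± 0.10 in the mTERT and −0.09 ± 0.10 in the mTR line, and for Srxn1 they were 0.04 ± 0.11 and −0.03 ± 0.11.

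Peroxiredoxins reduce hydrogen peroxide at low concentrations. Prdx1, a cytosolic member induced by NRF2, had signals of 10.28, 10.69 and 11.08 in mTERT WT versus 10.57, 10.75 and 10.88 in mTERT KO, and 10.65, 10.71 and 10.72 in mTR WT versus 10.77, 10.84 and 10.67 in mTR KO. Prdx2, its cytosolic relative, gave 10.45, 10.71 and 11.14 in mTERT WT versus 10.67, 10.62 and 10.70 in mTERT KO, and 10.62, 10.27 and 10.57 in mTR WT versus 10.52, 10.55 and 10.64 in mTR KO. Neither separated KO from WT, and the largest Prdx2 value, in mTERT WT 3, stood 0.44 above mTERT KO 3. The other probe set of Prdx2 gave −0.18 in the mTR line where the one used gave 0.09, so the sign of the Prdx2 difference depended on the probe set. Prdx3 showed 10.29, 10.23 and 10.26 in mTERT WT versus 10.27, 10.22 and 10.27 in mTERT KO, and 10.30, 10.26 and 10.23 in mTR WT versus 10.36, 10.32 and 10.30 in mTR KO, a mTR difference of 0.06 ± 0.05 with overlap at one pair of cultures.

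Superoxide is converted to hydrogen peroxide by the superoxide dismutases, cytosolic Sod1 and extracellular Sod3, and catalase (Cat) breaks the peroxide down. Sod3 carried the largest difference of the 36 genes in the mTR line. Its signals were 6.92, 6.66 and 6.44 in mTR WT versus 6.26, 5.96 and 5.81 in mTR KO, every KO culture below every WT culture, a difference of −0.66 ± 0.26 (95% interval −1.23 to −0.10, adjusted p = 0.839 with limma). In the mTERT line Sod3 gave 5.63, 6.46 and 5.93 in WT and 5.92, 6.64 and 5.69 in KO, which overlapped, with a difference of 0.08 ± 0.26. The test of the difference between the mTERT and mTR effects gave 0.74 (adjusted p = 0.99988 with limma). Cat measured 8.79, 8.83 and 9.12 in mTERT WT versus 8.63, 8.88 and 9.01 in mTERT KO, and 8.87, 9.08 and 9.13 in mTR WT versus 8.88, 8.93 and 8.87 in mTR KO, with differences of −0.08 ± 0.11 and −0.14 ± 0.11 and overlap in both lines. Sod1 differed by 0.04 ± 0.08 and −0.02 ± 0.08.

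Glutathione peroxidases use glutathione to reduce peroxides, with Gpx4 acting on lipid peroxides in membranes and Gpx3 secreted. Gpx1 signals were 9.48, 9.47 and 9.55 in mTERT WT versus 9.56, 9.50 and 9.51 in mTERT KO, which overlapped. They were 9.58, 9.56 and 9.58 in mTR WT versus 9.41, 9.50 and 9.43 in mTR KO, all KO below all WT, a difference of −0.13 ± 0.06 (adjusted p = 0.839 with limma) that corresponds to 1.09-fold. Gpx3 gave 7.62, 7.36 and 7.31 in mTERT WT versus 7.46, 7.54 and 7.81 in mTERT KO, and 7.67, 8.06 and 7.14 in mTR WT versus 7.53, 7.14 and 7.72 in mTR KO, with differences of 0.17 ± 0.21 and −0.17 ± 0.21. The mTERT value was 0.07 without mTERT KO 3 and 0.26 without mTERT WT 1. Gpx4 read 9.95, 9.95 and 10.08 in mTERT WT versus 9.83, 9.80 and 10.01 in mTERT KO, and 9.88, 10.08 and 9.95 in mTR WT versus 9.88, 9.90 and 9.92 in mTR KO. It was lower in KO in all 3 mTERT pairs of the same number, by a mean of −0.11 ± 0.08, but the groups overlapped. The mean was −0.17 without mTERT KO 3 and −0.07 without mTERT WT 3.

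Heme oxygenase (Hmox1) opens heme and releases iron, and ferritin (Fth1 and Ftl1) stores the iron. Blvrb encodes biliverdin reductase B. Fth1 signals were 12.10, 12.57 and 12.67 in mTERT WT versus 11.83, 12.58 and 12.53 in mTERT KO, and 11.83, 12.44 and 12.52 in mTR WT versus 12.61, 12.42 and 11.999 in mTR KO. For Ftl1, the ferritin light chain, they were 11.23, 11.41 and 11.78 in mTERT WT versus 11.25, 11.35 and 11.61 in mTERT KO, and 11.28, 11.52 and 11.56 in mTR WT versus 11.38, 11.46 and 11.37 in mTR KO. KO and WT overlapped in both lines for both chains, with differences of −0.13 ± 0.25 and 0.08 ± 0.25 for Fth1 and −0.07 ± 0.14 and −0.05 ± 0.14 for Ftl1. Blvrb gave 5.88, 6.27 and 6.36 in mTERT WT versus 6.13, 6.36 and 6.27 in mTERT KO, and 6.003, 5.85 and 6.07 in mTR WT versus 6.50, 6.46 and 5.64 in mTR KO. Its mTR difference of 0.23 ± 0.20 was 0.50 without mTR KO 3, the lowest of the 12 cultures for this gene, and 0.08 without mTR KO 1.

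Glutathione transferases conjugate electrophiles, Ephx1 hydrolyses epoxides and Abcc1 exports conjugates. Gsta4 gave 5.92, 6.82 and 6.96 in mTERT WT versus 6.18, 6.24 and 6.48 in mTERT KO, and 6.54, 7.09 and 6.48 in mTR WT versus 7.69, 7.46 and 6.22 in mTR KO. The mTR difference was 0.42 ± 0.36, and 0.87 without mTR KO 3, the one KO culture below all mTR wild types, but 0.13 without mTR KO 1. Gstm1 measured 7.33, 7.71 and 7.21 in mTERT WT versus 7.12, 7.37 and 6.70 in mTERT KO, and 7.47, 7.95 and 7.40 in mTR WT versus 7.84, 8.03 and 7.09 in mTR KO. It was lower in KO in each mTERT pair, by 0.21, 0.35 and 0.51, but the groups overlapped and the mean of −0.36 ± 0.26 had an adjusted p of 1 in limma; without mTERT KO 3 it was −0.17. Gstp1, the abundant pi-class transferase, read 9.92, 9.98 and 9.89 in mTERT WT versus 10.06, 10.02 and 10.06 in mTERT KO, all KO above all WT, a difference of 0.12 ± 0.08 (adjusted p = 1 with limma). In the mTR line Gstp1 overlapped, with 10.04, 9.99 and 9.84 in WT and 9.87, 10.04 and 9.81 in KO. Mgst1, a membrane-bound transferase, had 7.19, 8.02 and 7.18 in mTERT WT versus 7.44, 8.06 and 6.63 in mTERT KO, and 6.74, 7.46 and 6.97 in mTR WT versus 7.72, 7.51 and 6.73 in mTR KO, overlapping in both lines.

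Abcc1 signals were 9.30, 9.61 and 9.47 in mTERT WT versus 9.25, 9.39 and 9.38 in mTERT KO, and 9.37, 9.42 and 9.47 in mTR WT versus 9.22, 9.41 and 9.38 in mTR KO. KO was the lower culture in every mTERT pair, with a mean of −0.12 ± 0.09, and the groups overlapped. That mean was −0.20 without mTERT WT 1 and −0.04 without mTERT WT 2. Aox1, near background throughout, gave 5.23, 5.33 and 5.28 in mTERT WT versus 5.29, 5.25 and 5.18 in mTERT KO, and 5.52, 5.26 and 5.34 in mTR WT versus 5.42, 5.30 and 5.19 in mTR KO. Ephx1 differed by −0.12 ± 0.14 in the mTERT and −0.16 ± 0.14 in the mTR line.

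Methionine sulfoxide reductases repair oxidised methionine, Msra acting on one stereoisomer and the mitochondrial Msrb2 on the other. Msrb2 had the largest moderated t of the 36 genes in the mTERT comparison, in the direction of lower signals in KO. Signals of Msrb2 were 6.45, 6.53 and 6.62 in mTERT WT versus 6.26, 6.28 and 6.20 in mTERT KO, with every KO culture below every WT culture. The difference was −0.29 ± 0.08 (95% interval −0.46 to −0.12), which is 1.22-fold, with an adjusted p of 1 in limma. KO was lower by 0.19, 0.25 and 0.42 in pairs 1, 2 and 3. In the mTR line Msrb2 gave 6.32, 6.58 and 6.42 in WT and 6.40, 6.36 and 6.26 in KO, which overlapped, with a difference of −0.10 ± 0.08. Msra, a dim signal, read 5.52, 5.32 and 5.68 in mTERT WT versus 5.53, 5.23 and 5.50 in mTERT KO, and 5.39, 5.43 and 5.36 in mTR WT versus 5.09, 5.40 and 5.57 in mTR KO, and overlapped in both lines.

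Knockout and wild-type groups without overlap made up a share of these genes close to or below that over the array. In the mTERT line they were Gstp1 alone with KO higher (2.88% of all probe sets) and Msrb2 alone with KO lower (3.09%), together 5.56% of the members, where 5.97% of all probe sets did not overlap. In the mTR line they were Tkt, Sod3 and Gpx1, all lower in KO (6.07% of all probe sets), and 0 genes were higher (5.33%). That is 8.33% of the members, against 11.4% of all probe sets. Within the mTERT pairs of the same number, KO was higher in all 3 for Gstp1 (12.6% of all probe sets). KO was lower in all 3 for Pgd, Tkt, Gpx4, Gstm1, Ephx1, Abcc1 and Msrb2 (3603 of 28853 probe sets). These 8 genes are 22.2% of the members, against 25.1% of all probe sets with 3 pairs of one sign. A fit of the 6 mTERT arrays with the pairs as a block, added after the data were seen, called 0 of 36 genes and 0% of all probe sets. At an unadjusted p under 0.05 it gave Gstm1 (−0.36 ± 0.08) and Msrb2 (−0.29 ± 0.08), against 5.56% of all probe sets.

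**Figure D3:**
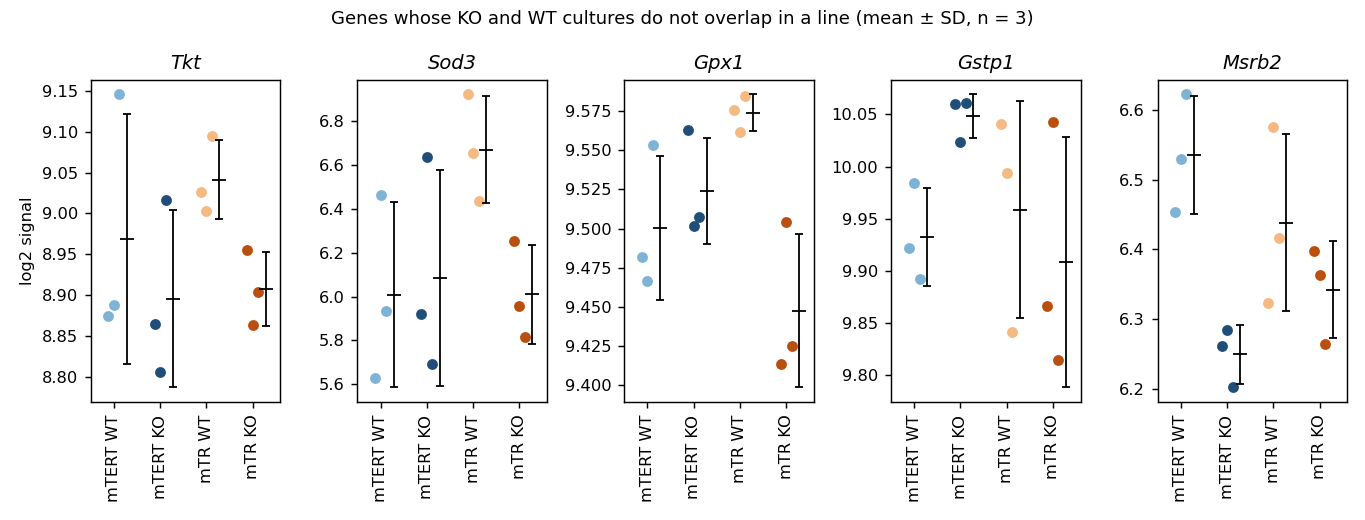
Points are the log2 signals of the 3 cultures in each group for the 5 genes whose KO and WT cultures did not overlap in one of the lines, with the mean and SD beside them. Gstp1 and Msrb2 separate in the mTERT line, and Tkt, Sod3 and Gpx1 in the mTR line; the separation of Gpx1 is 0.13 on average and that of Sod3 0.66.

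No gene among the 36 was called for a difference between the mTERT and mTR effects (0% of all probe sets called, smallest adjusted p of a member 0.99988 with limma), and 0 passed at an unadjusted p under 0.05, against 3.34%. The 95% interval of this difference was within 1.5-fold for 22 of 36 genes. The wild types of the lines, which share a strain, had a median absolute difference of 0.11 over the 36 genes, beside 0.07 in the mTERT and 0.09 in the mTR knockout comparison. Limma called 0 of 36 genes between mTERT WT and mTR WT, against 0.0173% of all probe sets, and Gsr (−0.26 ± 0.11) and Sod3 (−0.66 ± 0.26) passed at an unadjusted p under 0.05, against 6.78%. Gclc, Gsr and Gpx1 were lower in mTERT WT without overlap, 8.33% of the members, against 7.14% of all probe sets in that direction and 13.1% in either. For Sod3, mTERT WT was as far below mTR WT as mTR KO was. Gclc gave −0.26 ± 0.14, or −0.15 without mTR WT 2, and Msrb2 0.10 ± 0.08, with 0.04 without mTR WT 1 and 0.17 without mTR WT 2. Prdx2 (0.28 ± 0.15) and Mgst1 (0.41 ± 0.37) were above 0, with overlapping cultures, and Prdx2 was −0.083 with its other probe set. Prdx2 was 0.09 without mTERT WT 3 and 0.44 without mTERT WT 1, and Mgst1 0.13 without mTERT WT 2 and 0.61 without mTR WT 2. Of the marker lists, 16 of 16 macrophage (median 0.83) and 5 of 5 proliferation markers (0.30) were higher in mTERT WT than in mTR WT. So were 6 of 6 skeletal muscle markers (0.20), dim signals with a list mean of 5.16 to 5.58 over the cultures. Only 2 of these 6 were above background in every array. None of the marker differences was called, and their part in these values was not tested. These wild types are also the controls of the knockout comparisons, so the values are not independent of them.

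Many of these genes followed the culture number in the mTERT line. The KO and WT cultures of a number were taken as a set because they deviated together from their group means over these same arrays. A litter cannot be told apart here from anything else that the cultures of a number shared. The numbers of the mTR line did not behave as pairs. For 20 of 36 genes both cultures of mTERT set 3 lay above both of set 1 (55.6%), against 24.2% of all probe sets and 25.5% of the 15396 above background in all arrays. Only Keap1, Prdx3 and Mgst1 had set 3 below set 1 without overlap (8.33%), against 24.1% of all probe sets and 33.1% of those above background. Set 2 lay above set 1 for 16 genes (44.4%, against 17.3%) and set 3 above set 2 for 19 (52.8%, against 29.3%). The 20 genes included all 4 NADPH enzymes and 4 of 5 genes of the quinone, heme and iron group. In this count 6 of the 10 genes with an antioxidant response element match took part, and 9 of the 19 without one.

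In the test of the 3 sets within all 12 arrays, limma called 0 of 36 genes, where 0.0624% of all probe sets were called, and 10 genes passed at an unadjusted p under 0.05, 27.8% against 13.2% of all probe sets and 19.1% of those above background in all arrays. The 8 with the largest F were Prdx1 (adjusted p = 0.161), Pgd, Sod3, Ftl1, Cat, Taldo1, Mgst1 and Tkt (0.295). Fitted to the 6 mTERT arrays alone, the same term called 7 of 36 genes (19.4%), where 7.63% of all probe sets were called and 11.4% of those above background in all arrays. At an unadjusted p under 0.05, 18 genes passed there, against 21.1% of all probe sets. The numbers were taken as sets because their cultures were alike on these same arrays. The counts therefore describe the members beside all probe sets and are no independent test of the sets. The 12-array fit takes its spread partly from the mTR cultures, in which numbers are not pairs. The 6-array fit has 2 residual degrees of freedom and 5.45 from the prior, and with estimated array weights on 12 arrays 1 gene was called, so the count of 7 depends on this choice.

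The 7 genes followed 2 patterns. Fth1 was higher in sets 2 and 3 than in set 1, by 0.61 ± 0.10 and 0.64 ± 0.10 (SE, adjusted p = 0.00989 with limma on 6 arrays). Hmox1, which is named because it was called here and outside the rule for named genes, gave 8.93, 9.59 and 9.78 in mTERT WT versus 9.06, 9.42 and 9.62 in mTERT KO, so that sets 2 and 3 exceeded set 1 by 0.51 ± 0.10 and 0.71 ± 0.10 (adjusted p = 0.0125). Pgd was higher by 0.31 ± 0.08 and 0.53 ± 0.08 against set 1 (adjusted p = 0.0189), and Ftl1 by 0.14 ± 0.09 and 0.46 ± 0.09 (adjusted p = 0.0440). In these 4 genes set 3 was the highest by mean and set 1 the lowest. The other pattern had its peak in set 2. Sod3 was 0.77 ± 0.13 higher in set 2 than in set 1 and 0.04 ± 0.13 higher in set 3 (adjusted p = 0.0170). Mgst1 was 0.73 ± 0.17 higher in set 2 and 0.41 ± 0.17 lower in set 3 (adjusted p = 0.0164), and Gstm1 0.32 ± 0.10 higher and 0.27 ± 0.10 lower (adjusted p = 0.0256). Just short of the threshold were Taldo1 (adjusted p = 0.0501), Gclm (0.0622) and Prdx1 (0.0755).

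**Figure D4:**
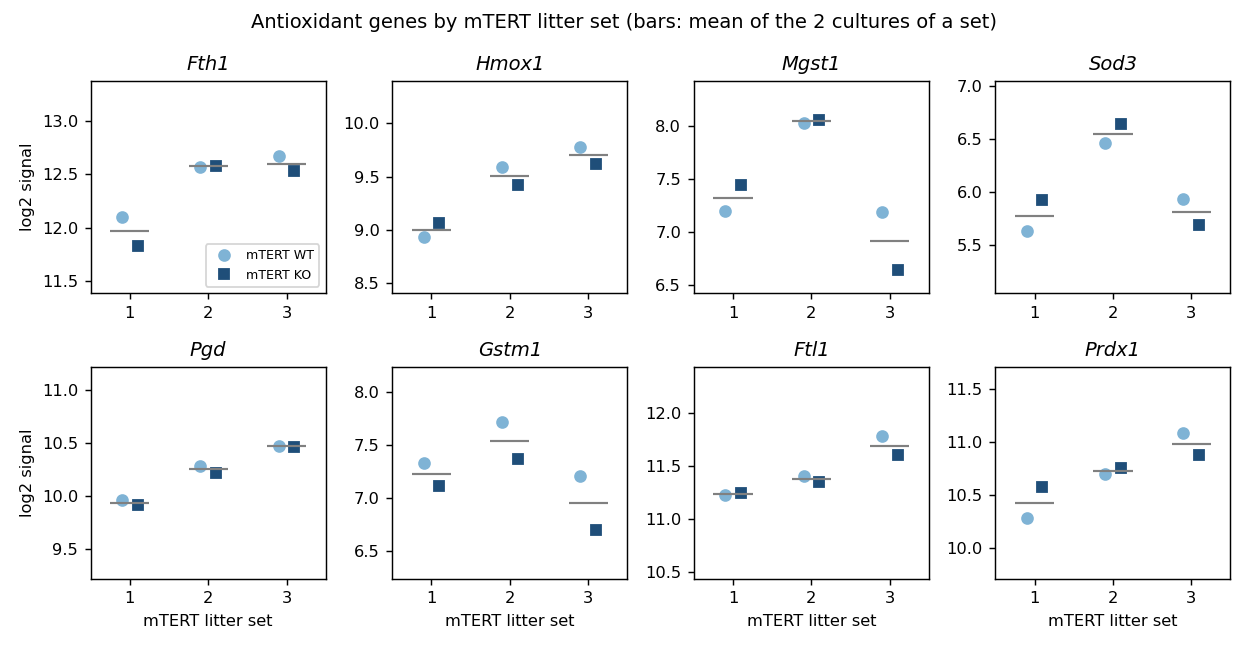
Each panel gives the log2 signal of one gene in the WT (circles) and KO (squares) culture of mTERT sets 1, 2 and 3, with a bar at the mean of the set, on axes of equal height. Fth1, Hmox1, Pgd, Ftl1 and Prdx1 are lowest in set 1, whereas Mgst1, Sod3 and Gstm1 are highest in set 2; the cultures of a set lie close together compared with the steps between sets in most panels.

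Macrophage markers moved with the sets as well. Their mean signal was 8.08 and 7.81 in set 1 (WT and KO), 9.43 and 9.61 in set 2, and 9.72 and 9.37 in set 3. In the 6-array fit 16 of 16 were called, where 7.63% of all probe sets and 11.4% of those above background in all arrays were called. All 16 had sets 2 and 3 above set 1 without overlap, and none was at background. Over all probe sets 24.2% had set 3 above set 1 and 17.3% had set 2 above set 1. All 5 proliferation markers had sets 2 and 3 below set 1, with 3 called. Of the fibroblast markers 3 of 12 were called. Set 3 lay below set 1 without overlap for 9 of 12, against 24.1% of all probe sets and 33.1% of those above background. Macrophages are cells known for high ferritin and heme oxygenase, which is background and not a result of these data. In the mTR line, where the sets were not used, Fth1 was 11.83, 12.44 and 12.52 in mTR WT, where the macrophage mean was 6.98, 8.66 and 9.06. In mTR KO Fth1 was 12.61, 12.42 and 11.999, beside macrophage means of 9.89, 9.25 and 7.89. Hmox1 gave 8.88, 9.41 and 9.58 in mTR WT versus 9.36, 9.77 and 8.95 in mTR KO. In both mTR groups the culture with the lowest macrophage mean, mTR WT 1 or mTR KO 3, had the lowest Fth1, Ftl1 and Hmox1, though for Ftl1 mTR KO 3 and mTR KO 1 were close (11.37 and 11.38). The highest cultures matched only in part. In mTR WT the macrophage mean, Fth1, Hmox1 and Ftl1 were all highest in culture 3. In mTR KO the macrophage mean (9.89) and Fth1 were highest in culture 1, but Hmox1 (9.77) and Ftl1 (11.46) in culture 2. The part of the macrophage markers in the differences of Fth1, Ftl1 and Hmox1 was not tested. Pgd was lowest in the same cultures, at 9.97, 10.14 and 10.19 in mTR WT versus 10.13, 10.36 and 10.08 in mTR KO. The low mTR KO 3 values of Slc7a11, Blvrb, Gsta4, Gstm1 and Mgst1 also fell in the KO culture with the lowest macrophage mean and the lowest proliferation marker mean of the 12 cultures (7.79), and the part of these in them was not tested.

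**Figure D5:**
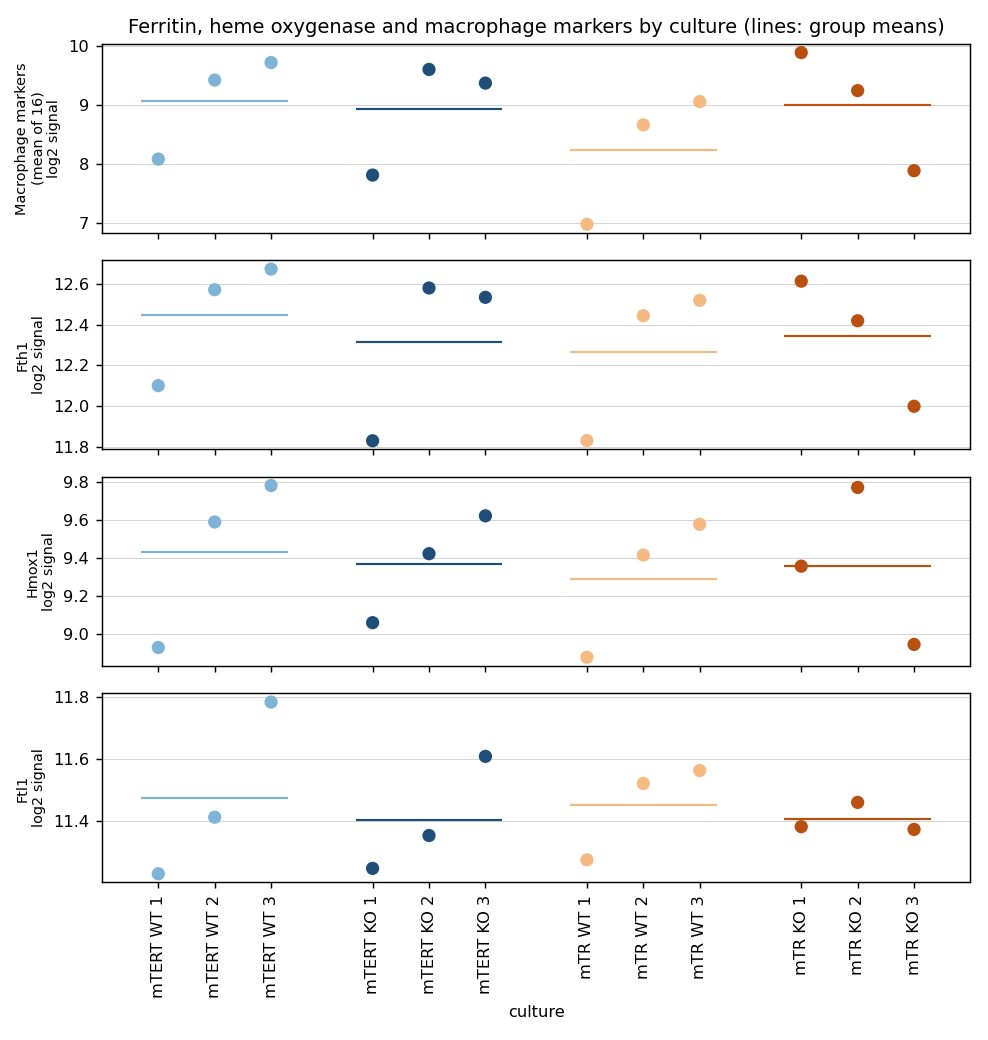
The panels give the mean log2 signal of 16 macrophage markers and the log2 signals of Fth1, Hmox1 and Ftl1 in each of the 12 cultures, with lines at the group means and a separate scale per panel. In all 4 panels mTERT WT 1, mTERT KO 1, mTR WT 1 and mTR KO 3 are the lowest of their groups, with mTR KO 1 close to mTR KO 3 for Ftl1.

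Further genes of the pathway were taken from 3 lists: 11 partners, repressors and adaptors of NRF2, 20 other reported targets, and 19 other antioxidant enzymes, 50 of 54 listed with a probe set. None was called in either knockout comparison with limma, in the difference of effects, between wild types or between sets over 12 arrays. In the mTERT comparison 23 were higher and 27 lower in KO, with a median of −0.03 and 0 at an unadjusted p under 0.05, against 1.92% of all probe sets. In the mTR comparison 27 were higher and 23 lower, with a median of 0.01, and only Maff, a small MAF partner of NRF2, had an unadjusted p under 0.05 (a difference of −0.39 ± 0.16), against 5.82%. In the 6-array fit of the mTERT sets 9 of 50 were called (18%), where 7.63% of all probe sets and 11.4% of those above background in all arrays were called. They moved in both directions. Bach2, a repressor that also pairs with small MAF proteins (−0.70), Gstm2 (−0.49), Pir (−0.55) and Ugdh (−0.26) were lower in set 3 than in set 1, while Gss (0.62), Glrx (0.54), Glrx3 (0.13), Mt1 (1.10) and Mt2 (1.66) were higher. The metallothioneins Mt1 and Mt2, small metal-binding proteins, had adjusted p of 0.00398 and 0.00246. Mt2 gave 6.39, 8.04 and 8.47 in mTERT WT versus 6.70, 7.88 and 7.93 in mTERT KO, low in both cultures of set 1. Set 3 lay above set 1 without overlap for 11 of the 19 other antioxidant enzymes and below it for 1. Among the 36 genes described here the counts were 20 and 3. Over all probe sets 24.2% lay above and 24.1% below, and of those above background in all arrays 25.5% and 33.1%. Among the 20 other reported targets 5 lay above and 6 below, near these shares.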

How the data were processed

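Gene expression in 12 mouse fibroblast cultures had been measured on Affymetrix arrays, 1 array per culture. The deposited table holds log2 signals for 28853 probe sets. GCOS 1.4, the Expression Console of Affymetrix and PLIER are named in the submitters' processing notes, with no role, and the sources used here do not state the normalization. Quantiles differed by at most 0.084 between arrays, so the deposited log2 values were used as they stood. Correlations between arrays ran from 0.984 to 0.997. Of the probe sets 21789 had 1 gene symbol, 1621 several and 5443 none.

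A mean per group was fitted to all 12 arrays and all probe sets with limma 3.58.1 in R 4.3.3 (8 residual and 3.14 prior degrees of freedom), with Benjamini-Hochberg adjustment at 5% and no filter. The mTERT set test was a moderated F of mTERT numbers added to that model. The genes, lists and tests were chosen with earlier results of these data known. Values are printed by culture for Nfe2l2 and Keap1; for the 4 highest and 4 lowest moderated t in each knockout comparison; for the 8 largest F between mTERT sets; for the 3 highest and 3 lowest t between wild types; and for the 3 brightest and 3 dimmest genes. The design text describes 3 independent littermate sets, and the culture labels give a number without naming a litter. For mTERT cultures of the same number, the correlations of deviations from group means were 0.674, 0.733 and 0.790, and they were −0.525 to −0.184 for different numbers, over 14427 brighter probe sets, so the mTERT numbers were taken as pairs. In the mTR line the same-number values were −0.156, 0.289 and −0.377, so those numbers were not. The model was tested on simulated data with independent arrays, no effect of sets, and added changes larger than most member differences here. That test does not show how the model handles the sets or differences this small. Alternatives covered normalization, filters, variance, array weights, blocks, probe sets and each array left out.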

Additional observations from a re-analysis of the deposited data

How the results depend on the processing

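No member was called in either knockout comparison, in the difference of effects or between wild types under any alternative run. The 22 signed differences chosen by the naming rule kept their direction, except that Prdx2 between wild types was −0.083 with its other probe set (chosen after seeing the data). They were picked for an extreme t in these same data, so a kept sign was likely from the start. Filters, variance settings and leaving out an array outside the comparison cannot move a difference. Over 17 settings, counted after seeing the data, the sign changed in at least 1 for 24 of 36 members in the mTERT line. It did so for 15 in the mTR line and 17 between wild types. With the other probe set Prdx2 in the mTR line went from 0.09 to −0.18 and Prdx1 in the mTERT line from 0.05 to −0.020. The mTERT comparison called 1 probe set, and 0 with quantile normalization, with the 6 arrays compared, or with the replicate block in both lines; members at an unadjusted p under 0.05 were 2 instead of 1 with that block and with the pairs on 6 arrays. The same count in the mTR line was 2, and 1 with a trended and robust variance, with mTERT pairs as a block or with 6 arrays, and 4 with array weights. For the difference of effects it was 0, and 1 with array weights or with any of the 3 replicate blocks, fixed or random. Probe sets called between wild types were 5, and 0 with quantile normalization, 9 with array weights, 17 with mTERT pairs as a block and 1 with 6 arrays. For mTERT litter sets 18 were called, and 11 in the brighter part, 9 with 1 symbol, 55 with a trended and robust variance, 715 with array weights, 137 with both lines' numbers as a replicate block and 2202 with 6 arrays; members called were 1 with array weights and 7 with 6 arrays, and at an unadjusted p 18 with 6 arrays against 10. The pairing changed no call of a member in the knockout comparisons.

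Leaving out each array in turn gave 0 to 2 probe sets called in the mTERT and 0 to 3 in the mTR comparison, 0 in the difference, 0 to 11 between wild types and 0 (without mTERT WT 2, among others) to 385 (without mTR KO 1) between sets. Members at an unadjusted p under 0.05 were 1 to 2, 0 to 3, 0 to 4, 1 to 3 and 4 (without mTERT WT 3) to 14 (without mTR KO 1) in that order, and 0 were called. The median member difference ran from −0.09 to 0.04 in the mTERT and −0.10 to −0.02 in the mTR line. The causes were not tested. With 3 arrays a group and no pairs in the fit, the intervals of 7 genes reached past a 1.5-fold change in both lines.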
